A study of Mus musculus with 18 samples.

Results

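The tight and adherens junction genes described here are 6 claudins (Cldn2, Cldn3, Cldn4, Cldn7, Cldn15 and Cldn23), the scaffold gene Tjp1, the membrane protein genes Ocln and F11r, and Cdh1. They were chosen by name, with earlier results of these data known, and they are 10 of the 55487 genes in the deposited counts. All 10 passed the filter on low counts, which left 15247 genes for testing. RNA was sequenced from 18 samples of mouse small intestinal organoids, which are 3-dimensional epithelial cultures grown from crypts. The organoids came from female wild-type C57BL/6 mice, were passaged and were then treated for 4 days. The 4 groups were norepinephrine at 1 μM (5 samples), its HCl vehicle (4 samples), UK14,304 at 1 μM (5 samples) and its DMSO vehicle (4 samples). Norepinephrine is the neurotransmitter of sympathetic nerves and acts on α- and β-adrenergic receptors, and UK14,304 is a synthetic agonist of α2-adrenergic receptors. The sample titles carry the numbers m1 to m5, read here as organoid lines. Lines m1 to m4 were present in all 4 groups and line m5 in the agonist groups only. The cultures hold no nerves, vessels or immune cells, and the account of their preparation gives no age for the donors. The labels do not say that the lines came from separate animals, so p-values measure the spread between these samples.

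Tight junctions seal the space between neighbouring epithelial cells. Claudins form their strands and set which ions pass, some by opening pores and others by closing the path, while occludin and junctional adhesion molecule A (F11r) are further membrane proteins of the junction and ZO-1 (Tjp1) ties them to actin. E-cadherin (Cdh1) forms the adherens junction below, and in the intestine the set of claudins changes between the crypt and the villus and between the small intestine and the colon.

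The promoters of 3 of these genes are shown because their transcripts carried the main differences. Cldn3 and Cldn4 had the lowest fold changes with both agonists and lie next to each other on chromosome 5, with 39.3 kb and 0 annotated genes between them, and Cldn2 was separated most clearly, for its spread, between organoid lines. Each sequence is the 250 bases before the gene's start in RefSeq (GRCm38.p6), read 5′ to 3′ on the gene's strand. It lies at chr5:134946935-134947184 on the minus strand for Cldn4, at chr5:134985964-134986213 on the plus strand for Cldn3 and at chrX:139800558-139800807 on the plus strand for Cldn2, outside the exons of these genes. Capitals mark 4 motifs searched on both strands: the GC box (GGGCGG or CCGCCC), an E-box (CACCTG or CAGGTG), the AP-1 site (TGACTCA or TGAGTCA) and the TATA box (TATAAA or TTTATA).
Cldn4: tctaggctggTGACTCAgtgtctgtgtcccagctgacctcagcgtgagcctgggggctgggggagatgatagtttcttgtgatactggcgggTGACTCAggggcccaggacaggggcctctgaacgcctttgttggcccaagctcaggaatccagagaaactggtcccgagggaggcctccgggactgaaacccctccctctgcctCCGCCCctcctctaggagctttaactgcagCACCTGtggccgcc
Cldn3: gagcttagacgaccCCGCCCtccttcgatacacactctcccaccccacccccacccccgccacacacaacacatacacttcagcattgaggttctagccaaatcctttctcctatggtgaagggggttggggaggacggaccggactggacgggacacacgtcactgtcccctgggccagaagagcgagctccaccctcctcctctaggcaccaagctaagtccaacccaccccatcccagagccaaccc
Cldn2: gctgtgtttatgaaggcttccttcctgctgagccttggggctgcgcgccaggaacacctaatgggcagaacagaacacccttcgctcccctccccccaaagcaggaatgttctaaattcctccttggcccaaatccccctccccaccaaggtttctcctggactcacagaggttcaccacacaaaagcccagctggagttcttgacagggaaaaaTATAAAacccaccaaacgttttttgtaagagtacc
In Cldn4 the AP-1 letters were found at 2 places, starting 240 and 158 bases before the start, with a GC box at 44 and an E-box at 14 bases, and no marked stretches overlapped. Cldn3 held 1 GC box, 236 bases before its start, and Cldn2 held 1 TATA box, 35 bases before its start. The table held promoters for 8 of the 10 genes (Cldn23 and Cdh1 were not in it), and Cldn7 and Ocln had a pair of start sites each. A GC box was found in 7 of the 8 genes, an E-box in 4, an AP-1 site in 3 (Cldn4, Cldn15 and F11r) and a TATA box in Cldn2 alone. All matches of Cldn7 and the E-boxes of Ocln lay in the window of the second start site. In those windows 221 bases (Cldn7) and 215 bases (Ocln) belong to exons of the gene itself. Among all 32851 promoters of the table such windows held a GC box in 32.7%, an E-box in 17.2%, an AP-1 site in 4.46% and a TATA box in 12.4%. These shares are of single promoters, whereas the counts are of genes with a match in any window, so the measures are unlike. The motifs were chosen after the sequences had been read, and a match is a description of letters, not of binding.

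Each sample had 21.87 to 27.85 M counted reads. The 5 epithelial markers (Epcam, Krt8, Krt18, Krt19 and Vil1) summed to 5522 to 6343 CPM (read counts scaled to the library total) in every sample, whereas the fibroblast, smooth muscle and endothelial lists each summed to at most 1.02 CPM and the leukocyte and the neuron and glia lists to at most 2.93 CPM, with Dcn at 0 in all samples. Agonist libraries of line m4 stood apart in how expression depended on the GC content of genes. The slope, in log2 expression per 10 percentage points of GC relative to the mean of all samples, was 0.195 with norepinephrine, the highest of the 18, and -0.222 with UK14,304, the lowest, while the other libraries lay between -0.146 and 0.121. Some results that rest on line m4 are therefore also given without it. The slopes also tended to be lower with agonist than with vehicle. They were 0.043 to 0.073 with HCl and -0.038 to 0.121 with DMSO. Apart from line m4 they were -0.146 to -0.070 with norepinephrine and -0.088 to 0.061 with UK14,304. Whether removing the GC trend also removes part of an agonist difference was not tested. Samples of the same line deviated together from their group means in all 4 pairs of each agonist with its vehicle, with correlations across genes of 0.119 to 0.431 for norepinephrine and 0.155 to 0.520 for UK14,304. Between the agonist groups the correlation was -0.212 for line m4 and 0.041 to 0.436 for the others. A second model with the line as a block is cited where it changes a call.

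All 10 genes were well measured, from 225 to 416 counts per library for Cldn23 up to 31593 to 40369 for Cdh1. Levels between genes are compared as CPM per kilobase of exon. Cdh1 was the highest, with 319 ± 10.4 (SD, n = 4) in HCl vehicle, and was above every claudin in all 18 libraries. Among the claudins Cldn7, found along the lateral membrane as well as in the junction, came first with 258 ± 9.43, followed by the pore-forming Cldn15 with 187 ± 7.60, the sealing claudin Cldn3 with 169.9 ± 8.00 and the cation and water pore Cldn2 with 125 ± 18.4 in HCl vehicle. F11r, at 70.1 ± 3.91, Ocln, at 42.6 ± 1.75, and Tjp1, at 30.3 ± 1.12, formed the middle of the order. Cldn4, another sealing claudin, reached 27.1 ± 7.64 and Cldn23, a less studied claudin, 7.31 ± 1.67 CPM per kilobase. Neighbours in this order kept it in all 18 libraries, except that Cldn15 was above Cldn3 in 17, Cldn3 above Cldn2 in 16 and Tjp1 above Cldn4 in 16 of 18, so these 3 pairs are not separated beyond their spread.

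**Figure D1:**
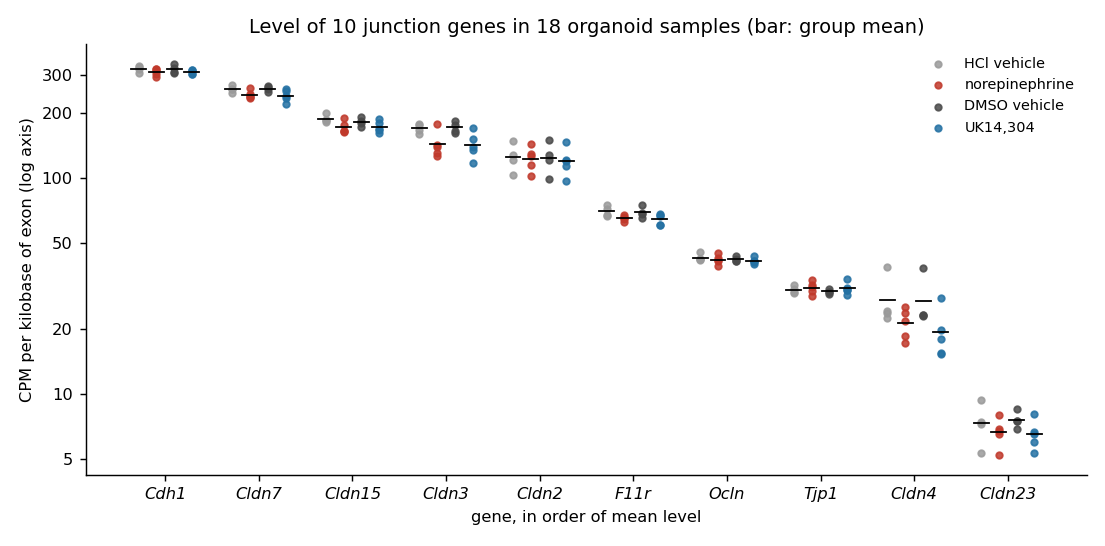
Level of the 10 junction genes in CPM per kilobase of exon (log axis), with 1 dot per sample, coloured by group, and a bar at each group mean. Cdh1 sits highest at 294 to 338 and Cldn23 lowest at 5.18 to 9.37; within a gene the 4 groups overlap, and Cldn4 has a single high sample in each vehicle group.

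The 6 claudins together made up 96.6 to 97.8% of the summed per-length level of all 32 claudin genes in the table. Cldn7 held 32.5 ± 0.660% of that sum in HCl vehicle and 33.3 ± 1.00% with norepinephrine. Cldn3 held 21.4 ± 0.530% and 19.6 ± 1.52%, and Cldn2 15.7 ± 1.55% and 16.8 ± 1.69%, in the same order of groups. With DMSO and UK14,304 the share of Cldn3 was 21.7 ± 0.471% and 19.7 ± 1.63%, and that of Cldn4 was 3.38 ± 0.789% and 2.65 ± 0.570%. Of the other 26 claudins only Cldn12, Cldn18 and Cldn8 passed the filter on low counts. Cldn12 reached 71.0 to 90.2 CPM, Cldn8 at most 2.75 and Cldn18 at most 0.825 CPM, and the remaining 23 did not exceed 9 counts in any library, with 11 of them at 0 in all 18.

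To ask whether adrenergic stimulation changed junction transcripts, norepinephrine was set against HCl and UK14,304 against DMSO. With both agonists 9 of the 10 genes had a fold change below 1, Tjp1 being the exception, and the lowest values were those of Cldn4 and Cldn3. The median log2 fold change of the 10 genes was -0.10 with norepinephrine and -0.09 with UK14,304, against -0.0077 and -0.0041 over all tested genes, of which 52.4% and 51.3% had a value below 0. By edgeR's quasi-likelihood test, with p adjusted across all tested genes after Benjamini and Hochberg, none of the 10 genes passed an adjusted p of 0.05 with norepinephrine (0% of all genes passed) or with UK14,304 (0.0394% of all genes, 6 in number), and DESeq2 without the block also called 0. At an unadjusted p under 0.05 there were 3 genes with norepinephrine (Cldn3, Cldn15 and F11r, all lower) against 6.18% of all genes, 3.74% being lower, and 3 with UK14,304 (Cldn3, Cldn4 and Cldn7, all lower) against 11.2% of all genes, 6.03% being lower. With the line as a block, Cldn4 passed for UK14,304, where 1.22% of all genes passed, 1.04% being lower. None of the 10 genes passed for norepinephrine with the block by edgeR (0.105% of all genes, 0.0918% being lower), and DESeq2 with the block called Cldn4 alone (0.223% of all genes). In these bulk samples fewer cells of a type and less RNA per cell cannot be told apart.

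**Figure D2:**
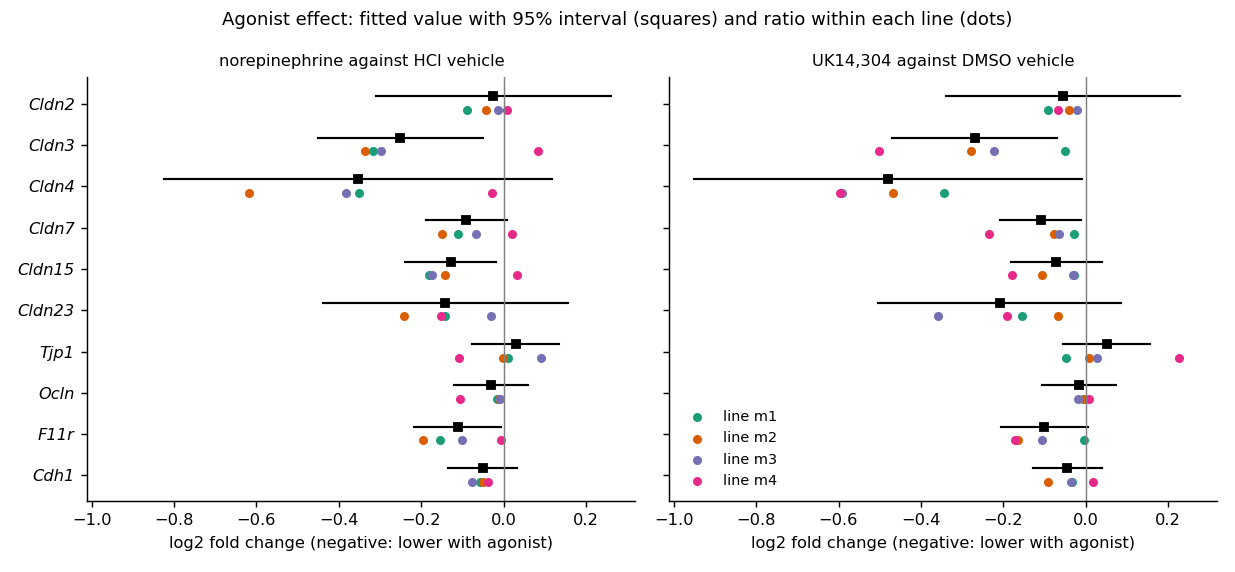
Agonist effect on each junction gene, as log2 fold change against the matching vehicle. Squares with bars are the edgeR estimate and its 95% interval from 5 against 4 samples, and coloured dots are the ratios within lines m1 to m4. Cldn4 and Cldn3 lie farthest to the left for both agonists. For Cldn3, Cldn7 and Cldn15 the dot of line m4 is the only one above 0 with norepinephrine, and it is the lowest of the 4 with UK14,304.

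Cldn4 (ENSMUSG00000047501, chr5:134945119-134946934 in GRCm38, minus strand) had the largest differences, and it fell with UK14,304 once the lines were compared with themselves. With DMSO its levels in lines m1 to m4 were 41.5, 69.5, 42.1 and 41.8 CPM, and with UK14,304 the 5 lines had 32.7, 50.3, 27.9, 27.6 and 35.9 CPM. Line m2 was the highest in both groups, and its UK14,304 sample lay above 3 of the DMSO samples, so the groups overlapped, although each of the 4 lines was lower with the agonist. The log2 fold change was -0.48 ± 0.22 (SE; edgeR adjusted p = 0.443) without the block and -0.49 ± 0.083 (edgeR adjusted p = 0.0047) with it, so the level fell by 28.9%. DESeq2 with the block gave the same call (1.78% of all genes called). The call was lost when line m2 was left out of the blocked fit (0 of the 10 genes and 0.157% of all genes called) and when line m3 was left out (0 of 10 and 0.15%), with log2 fold changes of Cldn4 between -0.53 and -0.46 over the 5 lines left out. It held when the GC trend of each library was removed as well, at -0.43 (edgeR adjusted p = 3.7e-05). With the block and a term for libraries with over 1% ribosomal RNA, Cldn4 was at -0.41 (edgeR adjusted p = 0.0344), and 78 of all tested genes passed. Such libraries were those of lines m1 to m3 with DMSO (2.41, 2.61 and 3.06%) and of line m1 alone with UK14,304 (1.97%). The part of ribosomal RNA content in the difference was not tested.

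With HCl Cldn4 was at 43.0, 70.0, 40.5 and 43.7 CPM in lines m1 to m4, and with norepinephrine at 33.7, 45.6, 31.1, 42.9 and 39.5 CPM in lines m1 to m5. All 4 lines were lower with norepinephrine, line m2 most and line m4 by 0.03 on the log2 scale, and the groups overlapped. The log2 fold change was -0.35 ± 0.22 (edgeR adjusted p = 0.722), and -0.34 ± 0.083 (edgeR adjusted p = 0.255) with the block. Without line m4 the blocked value was -0.44 (edgeR adjusted p = 7.0e-06). That fit called 5 of the 10 genes, which were Cldn3, Cldn4, Cldn7, Cldn15 and F11r, but also 15.1% of all tested genes (2300). With the block and the GC trend removed Cldn4 was the 1 gene called with norepinephrine, at -0.27 (edgeR adjusted p = 0.0301), where 0.203% of all genes passed.

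Cldn3 (ENSMUSG00000070473, chr5:134986214-134987472, plus strand) came second in size. With HCl it was measured at 223, 221, 202 and 210.0 CPM in lines m1 to m4 and with norepinephrine at 179, 175, 164, 223 and 158 CPM in lines m1 to m5. Line m4 was the highest norepinephrine sample and the only line above its vehicle, and the other 4 norepinephrine samples were below every HCl sample. With DMSO Cldn3 was at 221, 230.3, 203 and 208 CPM and with UK14,304 at 213, 190.0, 174, 147 and 169.7 CPM, where line m4 was the lowest and line m1 overlapped with the vehicle. The log2 fold change was -0.25 ± 0.095 (edgeR adjusted p = 0.713) with norepinephrine and -0.27 ± 0.095 (edgeR adjusted p = 0.382) with UK14,304. At 62.7% Cldn3 had the highest GC content of the 10 genes, and its level moved with the GC slope of the libraries. With the GC trend removed its log2 fold changes were -0.14 and -0.17, and with the block as well -0.12 (edgeR adjusted p = 0.247) and -0.16 (edgeR adjusted p = 0.0083), so that Cldn3 passed for UK14,304 in that fit, in which 4.11% of all genes passed. Cldn3 also passed for UK14,304 with the block when only the UK14,304 and DMSO samples were fitted, at -0.25 (edgeR adjusted p = 0.0410; 3.55% of all genes), and without line m4, at -0.19 (edgeR adjusted p = 0.0025; 3.83% of all genes). Of its 1259 exon bases 40 overlap Wbscr25 on the other strand, a gene with at most 12 counts per library.

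**Figure D3:**
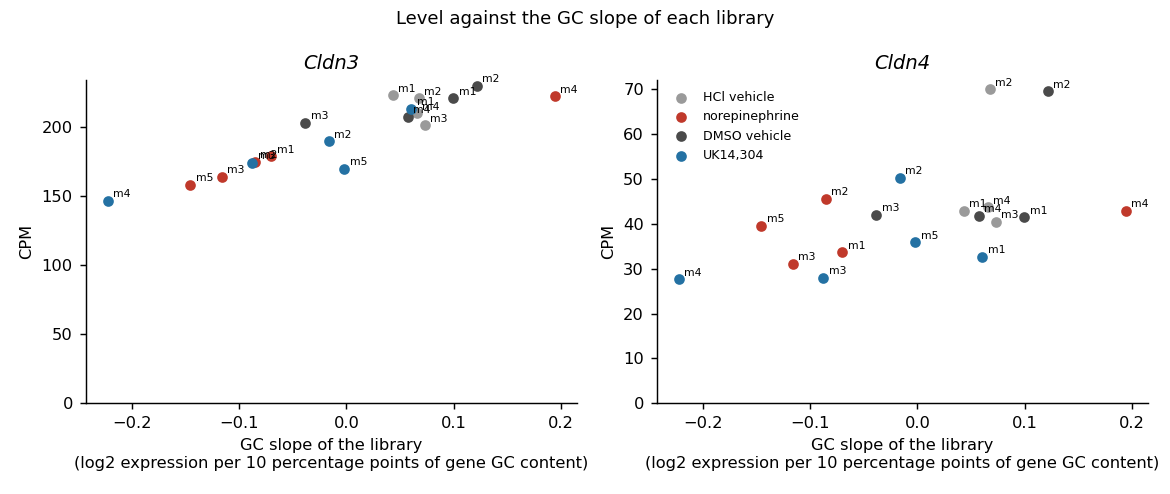
Level of Cldn3 (left) and Cldn4 (right) in CPM against the GC slope of each library, in log2 expression per 10 percentage points of gene GC content, with 1 dot per sample labelled by line. Cldn3 is lowest, at 147 CPM, in the UK14,304 library of line m4, which has the lowest slope, and the norepinephrine library of the same line has the highest slope and 223 CPM; for Cldn4 both line m2 vehicle samples stand at about 70.0 and 69.5 CPM.

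The other claudins differed less. Cldn7 (chr11:69964779-69967885, plus strand) was at 481 to 526 CPM with HCl, 453 to 509 with norepinephrine, 485 to 516 with DMSO and 428 to 499.9 with UK14,304, and its log2 fold changes were -0.09 ± 0.048 (edgeR adjusted p = 0.713) and -0.11 ± 0.048 (edgeR adjusted p = 0.415). With the GC trend removed the values of Cldn7 were -0.0080 and -0.04. Cldn15 (chr5:136966616-136975858, plus strand) was at 385 to 422 CPM with HCl and 347 to 403 with norepinephrine, and 3 of 4 lines were lower with the agonist. Its log2 fold change was -0.13 ± 0.053 (edgeR adjusted p = 0.713) with norepinephrine and -0.07 ± 0.053 (edgeR adjusted p = 0.585) with UK14,304, and -0.07 and -0.02 with the GC trend removed. Cldn23 (chr8:35824712-35826559, minus strand), the least abundant, had 9.78 to 17.3 CPM with HCl and 9.57 to 14.6 with norepinephrine. It was lower in all 4 lines with both agonists, with log2 fold changes of -0.14 ± 0.14 (edgeR adjusted p = 0.780) and -0.21 ± 0.14 (edgeR adjusted p = 0.555), or -0.08 and -0.15 with the GC trend removed. Cldn2 (chrX:139800828-139811386, plus strand) had 341 to 489.6 CPM with HCl, 338 to 475 with norepinephrine, 326 to 499 with DMSO and 321 to 485 with UK14,304. Its log2 fold changes of -0.03 and -0.06 had 95% intervals of -0.31 to 0.26 and -0.34 to 0.23, which the block narrowed to -0.10 to 0.04 and -0.13 to 0.01.

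Of the other membrane proteins of the tight junction, F11r was lower in each line with both agonists, and the values of Ocln depended on the GC trend. F11r (chr1:171437535-171464603, plus strand) had 191, 199, 177 and 179 CPM with HCl and 172, 174, 165, 178 and 175 with norepinephrine, so that the highest norepinephrine sample just reached the lowest vehicle sample. Its log2 fold change was -0.11 ± 0.051 (edgeR adjusted p = 0.713) with norepinephrine and -0.10 ± 0.051 (edgeR adjusted p = 0.460) with UK14,304, and all 4 lines were lower with either agonist. The smallest log2 ratios were close to a tie, -0.0075 in line m4 with norepinephrine and -0.0038 in line m1 with UK14,304. The F11r transcripts match those of 1194 other genes over at most 83 bases at 95% identity or more, and reads that map to several places were not counted. Ocln (chr13:100496507-100552718, minus strand) stayed between 164 and 191 CPM in all 18 libraries, with log2 fold changes of -0.03 ± 0.043 and -0.02 ± 0.043. The 95% intervals for Ocln were -0.12 to 0.06 and -0.11 to 0.07. Ocln had the lowest GC content of the 10 genes, 42.0%, and with the GC trend removed its log2 fold changes were -0.11 (edgeR adjusted p = 0.983) and -0.09 (edgeR adjusted p = 0.497). Tjp1 (chr7:65296165-65527781, minus strand) was the gene with positive values, 0.03 ± 0.051 and 0.05 ± 0.051, and ranged from 222 to 261 CPM with norepinephrine and from 224 to 265 with UK14,304. With the GC trend removed Tjp1 was at 0.0072 and 0.03. In Tjp1 the sample of line m4 was the lowest with norepinephrine and the highest with UK14,304. Without line m4 the blocked log2 fold changes of Tjp1 were 0.049 with norepinephrine and -0.014 with UK14,304, so the sign turned for UK14,304.

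Cdh1 (chr8:106603351-106670246, plus strand), the single adherens junction gene among the 10, was at 1398, 1502, 1452 and 1492 CPM with HCl and at 1342, 1450.4, 1378, 1454 and 1424 CPM with norepinephrine. It was at 1472, 1544, 1416 and 1403 CPM with DMSO and at 1439, 1449, 1382, 1420.1 and 1382 CPM with UK14,304. The groups overlapped in both comparisons, and line m2 was the highest of lines m1 to m4 in 3 of the 4 groups. The log2 fold changes of Cdh1 were -0.05 ± 0.040 (95% interval -0.14 to 0.03) and -0.04 ± 0.040 (95% interval -0.13 to 0.04), and with the GC trend removed they were -0.03 and -0.02.

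Counted over single lines, 5 of the 10 genes were lower in all 4 lines with norepinephrine (Cldn4, Cldn23, Ocln, F11r and Cdh1), as were 8.26% of all genes, and 7 with UK14,304 (the 6 claudins and F11r), as were 15.5% of all genes. In neither comparison did any of the 10 genes have all agonist samples below all vehicle samples, which was so for 0.78% and 1.78% of all genes. Marker sums of other epithelial cell types are given beside these values and were not tested. The 5 Paneth cell markers summed to 2334 to 3574 CPM with HCl and 1906 to 2666 with norepinephrine, and to 2227 to 3443 CPM with DMSO and 1942 to 2890 with UK14,304. The 4 enterocyte markers summed to 7060 to 10427 CPM with HCl, 7045 to 9962 with norepinephrine, 6748 to 10666 with DMSO and 6005 to 9024 with UK14,304. The 6 stem cell markers summed to 4352 to 5472 CPM with HCl, 4529 to 6271 with norepinephrine, 3933 to 6334 with DMSO and 4820 to 6843 with UK14,304. Such sums follow their most abundant markers. Among the stem cell markers Olfm4 had 2467.5 to 4983.5 CPM, whereas Lgr5 had 164 to 215 CPM. The goblet cell (4), enteroendocrine (5) and tuft cell (4) markers summed to 744 to 1201, 336 to 484 and 27.1 to 37.3 CPM over all samples, with overlapping ranges between an agonist and its vehicle for all 6 of these lists. None of the Paneth cell and enterocyte markers was at 0 in any library, and the part of cell composition in the junction genes was not tested.

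The agonists were set against each other by testing the difference between their effects. None of the 10 genes passed (0% of all genes passed), 0 reached an unadjusted p under 0.05 (1.51% of all genes), and DESeq2 also called 0. The largest difference was that of Cldn4, -0.13 ± 0.31 on the log2 scale (95% interval -0.79 to 0.54; edgeR adjusted p = 1.00), lower with UK14,304. For Ocln and Cdh1 the intervals were narrower, -0.11 to 0.14 and -0.11 to 0.13. The vehicles were also compared. Differences between HCl and DMSO lay between -0.05 and 0.05 for all 10 genes, and 0 of them passed by edgeR (0% of all genes) or DESeq2, or at an unadjusted p under 0.05 (1.27% of all genes).

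Some of these genes differed between the organoid lines. A test of the line terms in the blocked model, chosen after the values had been seen, called Cldn2, Cldn4 and Cldn23, 3 of the 10 genes, against 13.8% of all genes (2110). Cldn2 had the lowest p of the 10 genes, with edgeR adjusted p = 1.8e-08. In HCl vehicle it had 403, 489.6, 341 and 425 CPM in lines m1 to m4, and the order of m3, m1, m4 and m2 from low to high was the same in all 4 groups. Line m2 was 1.41 to 1.53 times line m3 in the 4 groups. Cldn23 also kept 1 order of the lines in all 4 groups, m3, m4, m1 and m2 from low to high, and its line test gave an edgeR adjusted p = 0.000352. With DMSO, however, lines m4 and m1 were nearly tied for Cldn23, at 13.72 and 13.73 CPM. Only 1.08% of all genes kept the order of the 4 lines in every group. Cldn4 was highest in line m2 in each group, 1.47 to 1.80 times line m3, with edgeR adjusted p = 2.3e-05. Without line m2 only Cldn2 passed (5.29% of all genes). Without line m4 there were 8 of the 10 genes, but also 29.2% of all genes (4459), and with the GC trend removed 7, against 24.3% of all genes (3701).

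**Figure D4:**
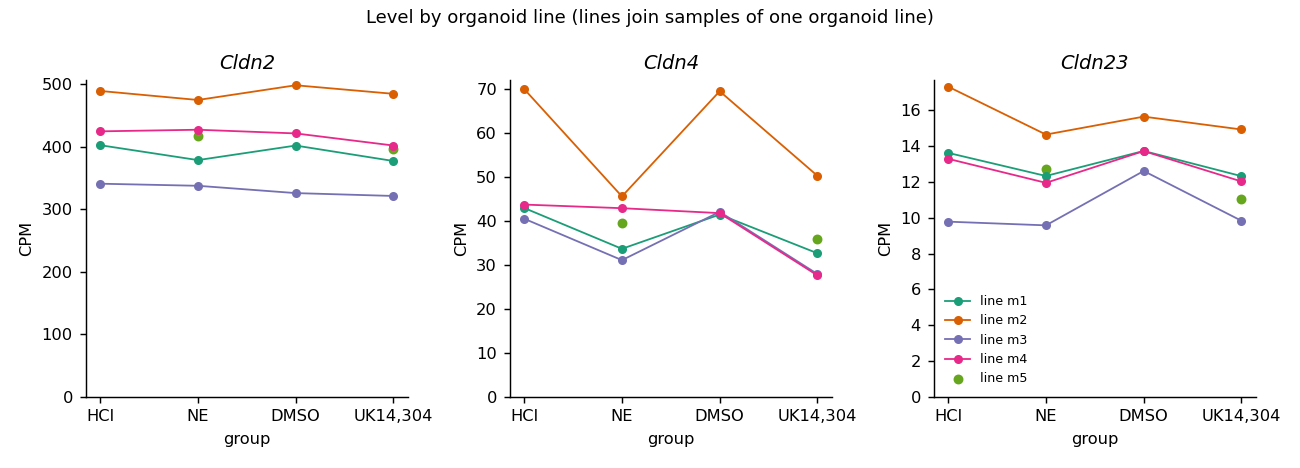
Level of Cldn2, Cldn4 and Cldn23 in CPM (axes from 0) by group, with lines m1 to m4 joined across the 4 groups and line m5 as single dots in the agonist groups (NE, norepinephrine). The curves of Cldn2 do not cross, with line m2 at 475 to 499 and line m3 at 321 to 341, and Cldn4 of line m2 is at 70.0 and 69.5 with the vehicles and at 45.6 and 50.3 with the agonists.

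The wider set of junction genes was looked at in 7 lists, and in none of them did a gene pass an adjusted p of 0.05 for either agonist by edgeR or DESeq2, with or without the block. Of the 57 genes tested in these lists 5 reached an unadjusted p under 0.05 with norepinephrine, all lower, and 5 with UK14,304, 3 of them lower. These 8.77% of the listed genes stand beside 6.18% and 11.2% of all genes in the same comparisons. Of the tight junction scaffolds and membrane partners 20 of 22 were tested, and 14 were lower with norepinephrine and 12 with UK14,304. Their median log2 fold change was -0.03 with both agonists, beside -0.0077 and -0.0041 over all genes. The lowest were Lsr, a protein of contacts between 3 cells, with -0.17 ± 0.065 for norepinephrine, and Crb3, a polarity protein of the apical membrane, with -0.18 ± 0.079 for UK14,304. These 2 genes were also the ones of this list with an unadjusted p under 0.05 in both comparisons. The highest were Jam2, 0.16 ± 0.34, which had at most 0.597 CPM, and the polarity kinase gene Prkci, 0.07 ± 0.051. All 5 genes of the claudin-7 partners and the matriptase system were lower with both agonists, with medians of -0.12 and -0.09. They ranged from Spint2, which encodes a protease inhibitor, at -0.15 ± 0.057 and -0.14 ± 0.057, to Epcam, which binds claudin-7, at -0.03 ± 0.035 and -0.0033 ± 0.035.

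Among the 12 catenins and adherens junction partners 8 were below 0 with norepinephrine and 5 with UK14,304, and the medians were -0.02 and 0.0026. Nectin2, an adhesion molecule of the adherens junction, was the lowest with -0.19 ± 0.12 in both comparisons, and Nectin3, 0.09 ± 0.075, and Nectin4, 0.29 ± 0.24, were the highest with norepinephrine and with UK14,304. The 6 desmosome genes had medians of -0.01 and 0.03, from Pkp3, a plakophilin, at -0.17 ± 0.070 and -0.15 ± 0.070 to Dsc2, 0.06 ± 0.052 with norepinephrine, and Dsp, 0.11 ± 0.044 with UK14,304. Among the other cadherins and the repressors of Cdh1 only Cdh3 and Snai2 passed the filter. Cdh3, with at most 0.594 CPM, had -0.29 ± 0.34 and 0.31 ± 0.39, and Snai2, a repressor of Cdh1, had 0.304 to 2.05 CPM and log2 fold changes of 0.70 ± 0.42 and 0.63 ± 0.40. The 9 actomyosin genes had medians of 0.02 and 0.05. Their extremes were Myh14 at -0.15 ± 0.080 and Rock1 at 0.14 ± 0.10 with norepinephrine, and Myl9, at most 0.872 CPM, at -0.88 ± 0.53 and Rock2 at 0.14 ± 0.072 with UK14,304. Of the other claudins Cldn12 had 0.09 ± 0.059 and 0.10 ± 0.059, Cldn18 -0.25 ± 0.66 and 0.27 ± 0.61, and Cldn8 0.04 ± 0.26 and -0.21 ± 0.27.

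**Figure D5:**
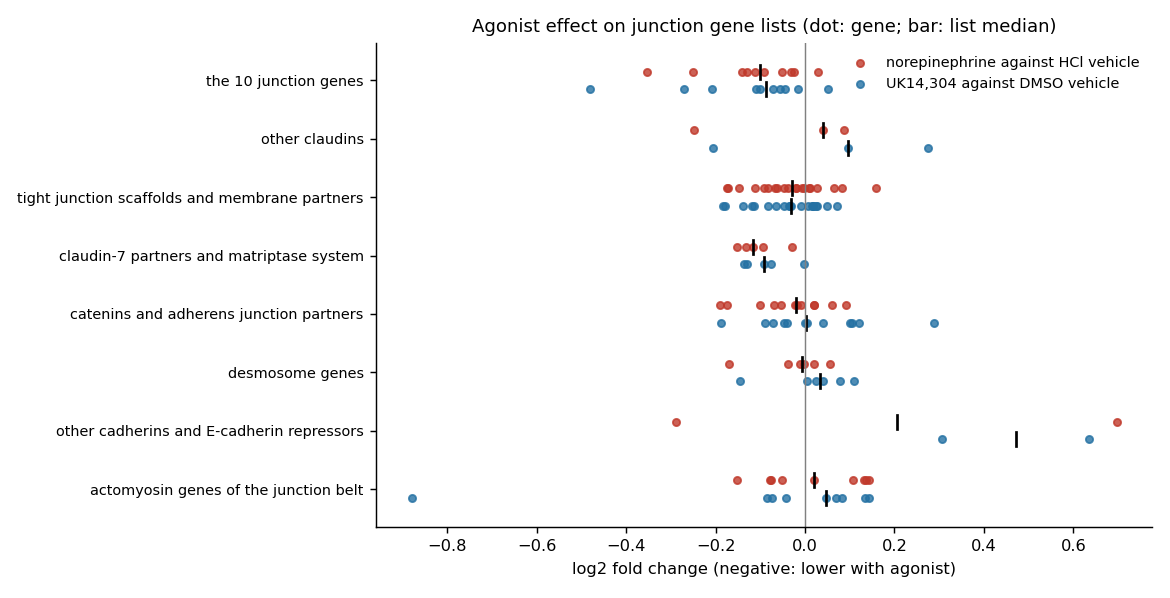
Log2 fold change of the 10 junction genes and of the tested genes in 7 related lists, with 1 dot per gene for norepinephrine (red) and UK14,304 (blue) and a bar at the median of each list. The medians of the 10 genes are -0.10 and -0.09; the widest dots, Myl9 at -0.88 and Snai2 at 0.70 and 0.63, are genes of at most 2.05 CPM.

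Finally, the 3 tested genes whose log2 CPM moved most closely with each member over the 18 libraries were listed. These correlations are descriptions, since all points share their libraries, lines and GC trends. For Cldn2 they were the brush border enzyme gene Alpi (r = 0.988), the calcium-binding S100g (r = 0.987) and the phosphate transporter gene Slc20a1 (r = 0.987). Alpi, a marker of enterocytes, ran in the same order of lines as Cldn2, with 789, 2088, 415 and 1134 CPM in lines m1 to m4 in HCl vehicle. For Cldn4 they were Rhof (r = 0.960), Areg, which encodes the EGF receptor ligand amphiregulin (r = 0.948), and Slc44a4 (r = 0.947). Areg had a log2 fold change of -0.35 with UK14,304 in the model without the block. It passed with the block (edgeR adjusted p = 0.0143), as did 1.22% of all genes, whereas Rhof and Slc44a4 did not (edgeR adjusted p = 0.114 and 0.337). Genes picked for moving with a member over these libraries share its agonist differences, so such a pass is not a separate result. For Cldn3 they included Mknk2 (r = 0.975) and Cib1 (r = 0.970), and for Cldn7 they were Rab25 (r = 0.972), Cldn3 itself (r = 0.961) and Mknk2 (r = 0.952).

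Cldn15 moved most closely with Tmem54 (r = 0.924), Lgals4 (r = 0.923) and Map2k2 (r = 0.923). Cldn23 did so with Trp53inp2 (r = 0.940), Plekhb2 (r = 0.933) and Fuca2 (r = 0.923). Trp53inp2 had a log2 fold change of -0.25 with UK14,304 in the model without the block and passed with the block (edgeR adjusted p = 0.00906). Plekhb2 and Fuca2 did not pass with the block (edgeR adjusted p = 0.157 and 0.398). For F11r the genes were Ctsd (r = 0.943), Tnfaip1 (r = 0.942) and Sqstm1 (r = 0.931), and for Tjp1 Xpr1 (r = 0.930), Fgd4 (r = 0.919) and Abi1 (r = 0.916). The values were lower for Cdh1, with Sipa1l1 (r = 0.877), Dpysl2 (r = 0.873) and Map4 (r = 0.866), and for Ocln, with Vsig1 (r = 0.852), Acsm3 (r = 0.844) and Klf6 (r = 0.843).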

How the data were processed

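RNA was measured in 18 samples of mouse small intestinal organoids. The authors mapped reads with STAR 2.7.3 to GRCm38 and counted them on exons, and the deposited table holds these raw counts for 55487 genes without normalization, together with the merged exon length. Its header names featureCounts 2.0.1 and Ensembl 102, a later release than the methods, and a command that used no strand and counted no read that mapped to several places or genes. All 18 columns were matched to samples by title. Symbols were matched for 55141 genes, and gene GC content came from GENCODE M21 transcripts.

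The main test was the robust quasi-likelihood fit of edgeR 4.0.16 (R 4.3.3) with TMM factors, the filterByExpr filter and 1 model of the 4 groups, with p adjusted over 15247 genes after Benjamini and Hochberg. Total counts per sample were 21.87 to 27.85 M. Intervals are 95% intervals of the fitted log2 fold change. CPM are TMM-normalized, and log2 CPM used a prior count of 2. The second model added the line number (m1 to m5) as a block, since same-line samples deviated together in every pair of an agonist with its vehicle. The pairing comes from the number in the sample titles. Alternatives were DESeq2 1.42.0 and its size factors, other filters and thresholds, removal of the GC or length trend (lowess, span 0.3), a term for libraries with over 1% ribosomal RNA, other sample sets and leaving out samples. Near copies were searched with blastn 2.17.0 (50 bp, 95% identity).

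The members and lists were chosen with earlier results of these data known. The genes named are the 10 members, the genes of each list past the threshold, the highest and the lowest of each list for each agonist, and the 3 genes with the highest Pearson correlation with each member, of which 1 is not reported here. The unadjusted p counts, Epcam, Wbscr25, the motifs and the test between lines were added after values had been seen. The authors' own comparisons were not used.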

Additional observations from a re-analysis of the deposited data

Results flagged for a closer look

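Of the 40 groups of samples formed by the 10 genes and 4 groups, 3 held a sample farther from the others than Dixon's criterion allows, and chance gives such a sample in about 1 of 20 groups. All 3 were samples of line m2 in a vehicle group. Cldn4 was at 70.0 CPM in line m2 with HCl, where the other samples lay between 40.5 and 43.7, and at 69.5 CPM in line m2 with DMSO, where the others lay between 41.5 and 42.1. Ocln was at 191 CPM in line m2 with HCl, with the others between 175 and 177. None of the 10 genes had a difference between the agonist effects that passed a test. In none of these genes did every line move one way with norepinephrine and the other way with UK14,304.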

How the results depend on the processing

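Without the block, 0 of the 10 genes were called for either agonist under every alternative threshold on the adjusted p, filter, normalization and sample set tried, under DESeq2 and with each sample left out. At an unadjusted p under 0.05 there were 3 with norepinephrine and 3 with UK14,304. Pairing the samples by line (replicate block) gave 0 with norepinephrine and 1 with UK14,304, and it changed no other call. Combined with the block, norepinephrine gave 1 with the GC trend removed and 1 with DESeq2, and 0 to 5 when 1 line was left out. UK14,304 gave 2 with the GC trend removed, 2 with only UK14,304 and DMSO samples, 1 with the length trend removed, 1 with the ribosomal RNA term, 1 with DESeq2 and 0 to 2 when 1 line was left out. The causes were not tested. The difference between agonists and that between vehicles gave 0 of the 10 genes throughout. Between lines, 3 genes were called (2110 over all genes), 7 with the GC trend removed (3701) and 1 to 8 when 1 line was left out (545 to 4459).

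Over all genes norepinephrine gave 0 calls without the block, 16 with it, 31 with the block and the GC trend removed, 34 with DESeq2 and the block, and 4 to 2300 with the block when 1 line was left out. UK14,304 gave 6 calls (2 lower), 22 without the filter, 1 with only UK14,304 and DMSO samples, 126 with both vehicles pooled, 46 with DESeq2 and 20 (11 lower) with the GC trend removed. With the block it gave 186 (159 lower), 626 (409 lower) with the GC trend removed, 525 with only UK14,304 and DMSO samples, 78 with the ribosomal RNA term, 272 with DESeq2 and 23 to 585 when 1 line was left out.

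The signs of small values turned. Tjp1 with norepinephrine was -0.0028 with the block and the GC trend removed and -0.0017 with the block and the length trend removed, and Ocln with UK14,304 was 0.0061 with the block and only UK14,304 and DMSO samples. When a sample was left out, the log2 fold change with norepinephrine ranged from -0.10 to 0.070 for Cldn2, from -0.26 to 0.0053 for Cldn23 and from -0.058 to 0.0059 for Ocln. With UK14,304 it ranged from -0.14 to 0.050 for Cldn2, from -0.031 to 0.0026 for Ocln (-0.014 to 0.0059 with the block) and, with the block, from -0.014 to 0.073 for Tjp1. The difference between agonists for Cldn4 ranged from -0.34 to 0.088. Cldn23, with 225 to 416 counts per library, rested on the fewest reads.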
